A study of Rattus norvegicus with 9 samples.

Results

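The genes described here encode the proton pump, the membrane proteins, the hydrolases and the Tfeb-family regulators of the lysosome. They were all table rows whose symbol begins with Atp6v, together with 25 genes listed by symbol, kept where at least 10 reads were counted in 3 or more libraries. Cathepsins were not included. Of 22 Atp6v rows 15 passed, and all 23 listed genes that had a row passed, which left 38 members of the 17315 genes in the tables. Ids and Naglu were not analysed here. The members fall into 8 subunits of the pump's V1 sector, 7 of its V0 sector, 5 membrane proteins, 9 glycan hydrolases, 6 hydrolases or activators acting on lipids, peptides and phosphates, and 3 regulators, namely Tfeb, Tfe3 and Sqstm1.

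RNA was sequenced from pXEN cells of the rat, stem cells of the primitive extraembryonic endoderm, the early lineage that gives rise to yolk sac endoderm. All 9 libraries were of the line RX1, of the WKY strain, so a single line stands for the cell type. CPE cultures (3 libraries) grew on collagen I in DMEM/F12 with Neurobasal, N2, B27 and β-mercaptoethanol, with 1 µM Chir99021, an inhibitor of the kinase Gsk3, and 10 ng/ml each of Pdgf and Egf. LPE cultures (3 libraries) had 10 ng/ml Lif in place of Chir99021 and were otherwise described in the same way. T cultures (3 libraries) grew on fibronectin in a DMEM/MCDB medium with LA-BSA, ITS, ascorbic acid, β-mercaptoethanol, 2% fetal bovine serum and 0.5 µM dexamethasone, plus Lif, Pdgf and Egf, each at 10 ng/ml. A difference between LPE or CPE and T therefore covers serum, dexamethasone, basal medium and coating at once, and for CPE also the absence of Lif and the presence of Chir99021. These cannot be told apart. Whether the libraries of a medium are separate cultures is not stated. The p-values therefore rest on how far these libraries differ, and that spread may be technical.

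Lysosomes are acidified by the vacuolar ATPase, in which the peripheral V1 sector splits ATP and the membrane-bound V0 sector carries protons through its ring of c subunits. Acid activates the luminal hydrolases, which take apart glycans, lipids and proteins, and heavily glycosylated proteins such as Lamp1 and Lamp2 line the membrane. The transcription factors Tfeb and Tfe3 are held in the cytoplasm by mTORC1 and, once in the nucleus, bind E-box-like elements in the promoters of many lysosomal genes. Endoderm of the visceral yolk sac is known for strong uptake and lysosomal breakdown of maternal protein.

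Reads on the gene strand totalled 3127352 to 4418465 per library in CPE, 3119049 to 3233526 in LPE and 1698764 to 2161228 in T, so that 1 count was worth 0.227 to 0.579 CPM (counts scaled to a common library size with TMM factors). Reads mapping to several places, which enter no gene, made up 51.7% to 58.2% of reads in CPE, 54.2% to 59.9% in LPE and 64.9% to 67.6% in T. The 8 endoderm markers with a row summed to 2626 to 2854 CPM in CPE, 3236 to 3549.7 CPM in LPE and 3287 to 3743 CPM in T, with Gata4 at 927 ± 31.3 CPM in CPE, 836 ± 42.2 CPM in LPE and 903 ± 80.3 CPM in T (SD, n = 3 each). Of 10 macrophage and blood markers, whose cells are rich in lysosomes, 6 had 0 counts in all 9 libraries, among them Ptprc, Lyz2 and Adgre1, and the list summed to 9.54 to 23.3 CPM in CPE, 5.59 to 17.9 CPM in LPE and 5.11 to 9.82 CPM in T. The 8 fibroblast markers summed to 0 to 6.44 CPM in CPE, 0 CPM in LPE and 1.39 to 32.4 CPM in T, and 5 of them had 0 counts in all libraries. The 5 trophoblast markers with a row summed to 14.3 to 35.8 CPM in CPE. They summed to 0 to 3.11 CPM in LPE and 1.39 to 3.27 CPM in T, with Ascl2 at 0 counts throughout. Cdx2 had 8.26, 0 and 22.5 CPM in CPE and 0 CPM in every LPE and T library. Elf5 had 5.80 to 12.0 CPM in CPE, 0 CPM in LPE and 0.465 to 0.579 CPM in T. The part of these markers in the results was not tested. In bulk RNA, fewer cells of a type and less RNA per cell cannot be told apart.

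Proton pump genes were mostly lower in LPE than in T, among them Atp6v1a, Atp6v1g1 and Atp6v0b, whereas most hydrolase genes did not pass the test there. In CPE, Psap, Asah1, Glb1, Man2b1 and Tpp1 were higher than in T. In LPE against T, 17 of the 38 members passed the test, 5 higher and 12 lower, against 29.7% of all 9130 genes tested (15.0% higher and 14.7% lower). In CPE against T, 14 members passed, 8 higher and 6 lower, against 32.1% of all genes (16.8% higher and 15.3% lower), a share close to that background. In CPE against LPE, 8 members passed, 7 higher and 1 lower, against 17.8% of all genes (9.56% higher and 8.23% lower). The median log2 fold change of the 38 members was -0.31 in LPE against T, 0.03 in CPE against T and 0.27 in CPE against LPE, beside -0.027, -0.014 and 0.008 over all genes. Libraries did not overlap for 24 members in LPE against T (47.3% of all genes), 21 in CPE against T (54.4%) and 13 in CPE against LPE (31.3%). LPE and CPE are both compared with the same T libraries. The tests are edgeR's quasi-likelihood test with Benjamini-Hochberg adjustment over all genes tested, called at an adjusted p under 0.05.

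**Figure D1:**
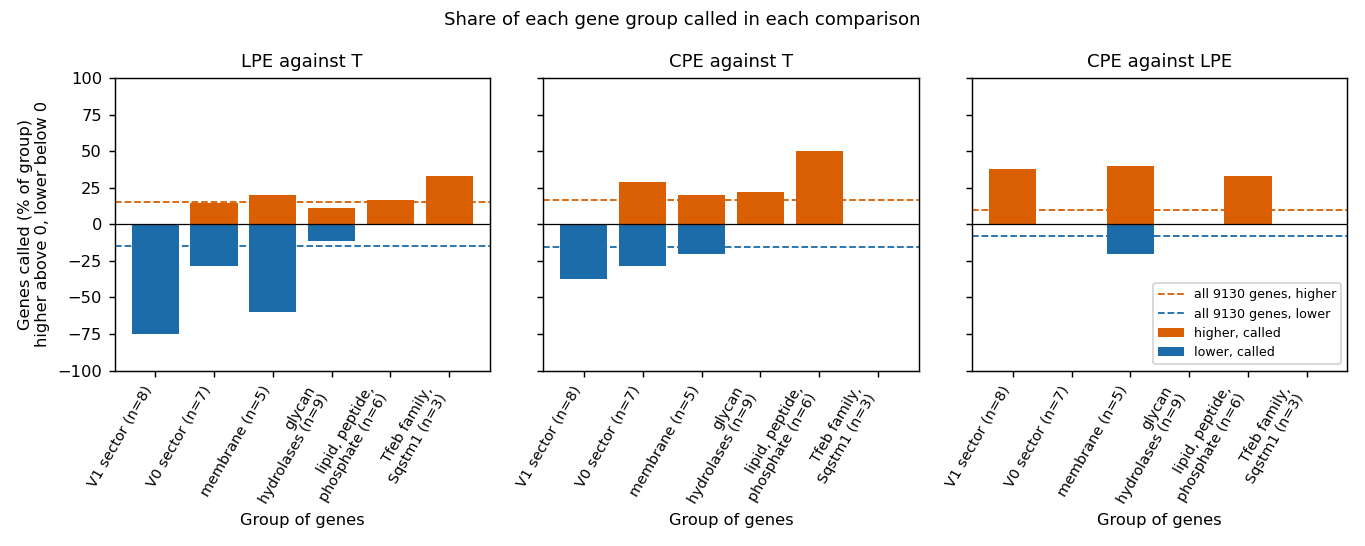
Share of each gene group called in each comparison, in percent of the group, with genes higher in the first-named medium above 0 and lower ones below 0; dashed lines give the shares over all 9130 genes. In LPE against T, 6 of 8 V1 genes were called lower, and in CPE against T 3 of the 6 genes for lipid, peptide and phosphate breakdown were called higher.

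Replicates of the members were closer to each other in T than in the serum-free media. The median coefficient of variation over the 38 members was 21.0% in CPE, 20.2% in LPE and 10.1% in T, beside 19.0%, 23.0% and 11.7% for the 7504 tested genes with mean levels in the members' range. The highest were those of Gaa in CPE (123%), Atp6v0e2 in LPE (98.4%) and Neu1 in T (32.7%). Of the rows nearest to the count rule, Atp6v0e2, with a third-highest count of 25, met it, and it was missed by Atp6v1c2, whose third-highest count was 6. The other rows that missed it were Atp6v0a4 (highest count 11), Atp6v1e2 (10), Atp6v1b1 (7) and Atp6v0d2, Atp6v1g2 and Atp6v1g3, each with 0 counts in all libraries.

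Promoter stretches are shown for 5 of the 8 members that hold the core of the Tfeb-family element, so that its letters and spacing can be seen beside genes that fell, rose or were not called. The windows, from RefSeq on the build GRCr8 (the deposited counts were made on rn6), run from 250 bases before a transcript's start to 50 after it, and 30 of the 38 members had one. The motifs searched, on both strands, were CACGTG, TCACGTGA (each its own reverse complement) and GTCACGTG (reverse CACGTGAC), and the longer ones contain the first. CACGTG was present in 8 of the 30 members (Atp6v0d1, Atp6v0e1, Cd63, Gaa, Glb1, Idua, Lamp1 and Mcoln1), or 26.7%, against 10.1% of tested genes with a window and 6.42% of all 33469 windows. GTCACGTG was present in 7 of these (23.3%, against 4.30% and 1.85%), and TCACGTGA in 4, namely Atp6v0d1, Atp6v0e1, Lamp1 and Mcoln1 (13.3%, against 1.83% and 0.777%). The 8 members without a window are Atp6v1b2, Atp6v1c1, Atp6v1h, Atp6v0e2, Hexa, Psap, Asah1 and Ppt1. A match is a run of letters and no evidence of binding. The stretches below end at the base before the start, read 5′ to 3′ on the gene's strand, and have CACGTG in capitals.
Lamp1 (chr16:83075064-83075253, minus strand): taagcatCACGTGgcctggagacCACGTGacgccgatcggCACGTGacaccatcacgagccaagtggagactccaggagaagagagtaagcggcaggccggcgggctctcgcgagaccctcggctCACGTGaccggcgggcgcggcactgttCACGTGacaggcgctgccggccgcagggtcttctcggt
Mcoln1 (chr12:6358198-6358257, plus strand): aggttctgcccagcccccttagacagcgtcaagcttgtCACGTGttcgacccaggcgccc
Glb1 (chr8:122963598-122963717, plus strand): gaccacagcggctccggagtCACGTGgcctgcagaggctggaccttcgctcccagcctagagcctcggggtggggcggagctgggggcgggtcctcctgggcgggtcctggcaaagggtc
Gaa (chr10:105028265-105028354, plus strand): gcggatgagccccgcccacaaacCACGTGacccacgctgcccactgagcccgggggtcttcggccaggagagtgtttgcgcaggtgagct
Atp6v0d1 (chr19:50357249-50357338, minus strand): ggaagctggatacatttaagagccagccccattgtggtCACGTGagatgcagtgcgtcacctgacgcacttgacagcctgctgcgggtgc
The Lamp1 stretch holds 5 copies of the core, the first letters of which stand at -183, -167, -150, -65 and -38 counted from the start, and each of the other stretches holds 1. Mcoln1 has another copy at 5, after the start, and the only copy of Atp6v0e1 lies at 25.

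V1 genes were lower in LPE than in T. Of the 8 genes, 6 fell and 2 missed the threshold (75% called, against 29.7% of all genes). Their median log2 fold change was -1.03. Atp6v1a, the catalytic A subunit that splits ATP, had 213, 242 and 230.1 CPM in LPE, against 564, 645 and 564 CPM in T. Every LPE library was far below every T library, and the gene fell 2.59-fold (log2 -1.37, SE 0.13, edgeR adjusted p = 1.3e-06). Atp6v1g1, part of the peripheral stalk, had 99.1, 75.2 and 102 CPM in LPE, against 274, 257 and 254 CPM in T. It fell 2.84-fold (log2 -1.51, SE 0.15, edgeR adjusted p = 3.1e-06). Atp6v1f, a subunit of the central rotor stalk, had 23.0, 24.9 and 24.0 CPM in LPE, against 101, 75.3 and 98.1 CPM in T. The LPE values lay close together, and the fall was 3.82-fold (log2 -1.93, SE 0.27, edgeR adjusted p = 7e-05). Atp6v1d, the other rotor subunit, had 106, 70.2 and 82.7 CPM in LPE, against 252, 204 and 218 CPM in T, a fall of 2.60-fold.

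Smaller falls in LPE were those of Atp6v1e1, a stalk subunit (106, 111 and 78.5 CPM in LPE, against 179, 139.6 and 157 CPM in T, 1.60-fold lower), and Atp6v1b2, the nucleotide-binding B subunit (439 ± 32.6 CPM in LPE and 561 ± 13.0 CPM in T, SD, n = 3 each). Leaving out T replicate 2, T replicate 3, LPE replicate 1 or LPE replicate 3 ended the call of Atp6v1b2 (edgeR adjusted p = 0.0654, 0.0787, 0.0805 and 0.0504). Leaving out T replicate 1, T replicate 3 or LPE replicate 3 ended that of Atp6v1e1 (adjusted p = 0.0854, 0.0504 and 0.0723). Atp6v1c1, a regulatory subunit that leaves the pump when it comes apart, had 234, 125 and 218 CPM in LPE, against 233, 239 and 245 CPM in T, with LPE replicate 2 alone well below. Atp6v1h, which keeps free V1 from splitting ATP, had 145, 51.3 and 92.9 CPM in LPE, against 151, 151 and 161 CPM in T. It was not called, but was without LPE replicate 1 (log2 -1.09, edgeR adjusted p = 0.00603).

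Against T, 3 of the 8 V1 genes fell in CPE and 5 missed the threshold (37.5% called). Over all genes 32.1% were called, 16.8% higher and 15.3% lower. The V1 genes that fell were Atp6v1g1 (129, 122 and 116 CPM in CPE, log2 -1.09, SE 0.15, edgeR adjusted p = 4.5e-05), Atp6v1d (90.8, 138 and 82.8 CPM in CPE, 2.16-fold lower) and Atp6v1a (349, 375 and 469 CPM in CPE, 1.48-fold lower). In these 3 the CPE and T libraries did not overlap. Atp6v1f had 83.2, 62.0 and 41.9 CPM in CPE, which overlapped T and was not called, but was lower without CPE replicate 1 (log2 -0.82, edgeR adjusted p = 0.0325). Without CPE replicate 2, Atp6v1b2 was also called lower (log2 -0.34, adjusted p = 0.041). Atp6v1c1 went the other way, as the only 1 of the 8 with a positive log2 fold change (0.39, SE 0.18). It was not called (edgeR adjusted p = 0.12), although its CPE libraries lay above those of T without overlap.

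CPE was then compared with LPE, in which Chir99021 replaces Lif and the rest of the medium is described alike. All 8 V1 genes had a positive log2 fold change (50.5% of all genes did), with a median of 0.43, and 3 of them rose. That is 37.5% called, against 17.8% of all genes. Atp6v1f rose 2.60-fold (log2 1.38, SE 0.27, edgeR adjusted p = 0.002). Atp6v1a rose 1.74-fold (log2 0.80, SE 0.13, adjusted p = 0.00036). Atp6v1c1, at 284, 319 and 333 CPM in CPE, rose 1.62-fold over the LPE values given above, a call lost without CPE replicate 3 (edgeR adjusted p = 0.0532). Atp6v1e1 was not called, but was without CPE replicate 1 (log2 0.62, adjusted p = 0.0407).

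**Figure D2:**
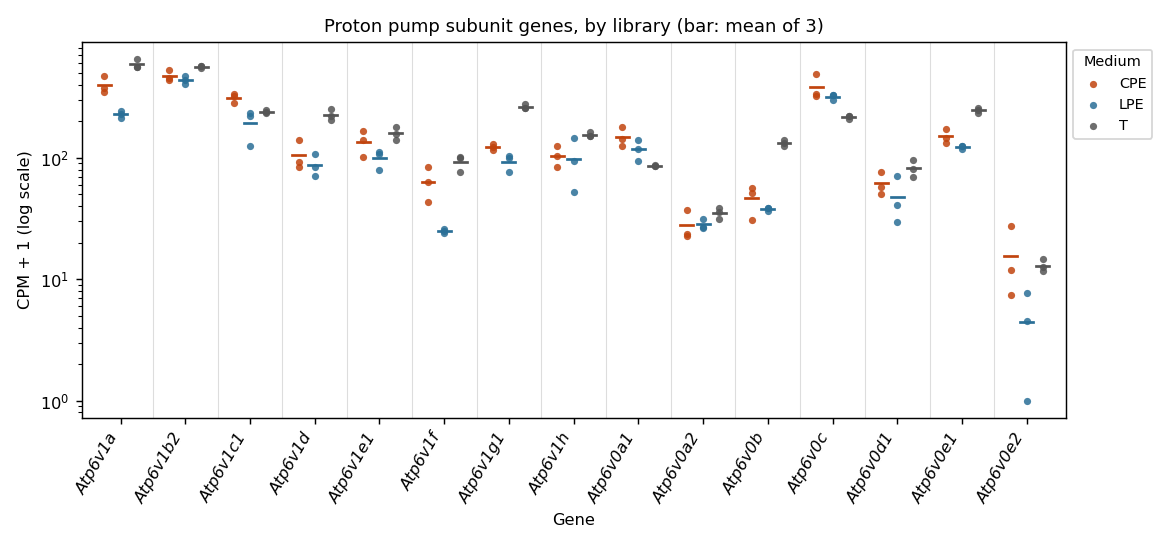
Levels of the 15 proton pump genes in CPM + 1 on a log axis, with a point for each library, a bar for the mean of 3 and the media CPE, LPE and T from left to right. The 3 T points lie above all LPE points for Atp6v1a, Atp6v1g1, Atp6v1f and Atp6v0b, whereas for Atp6v0c the 3 T points (206 to 219 CPM) lie below all others.

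V0 genes went both ways. In LPE against T, 2 of 7 fell, 1 rose and 4 missed the threshold, and in CPE against T 2 fell, 2 rose and 3 missed it. Of the 7, 42.9% were called in LPE and 57.1% in CPE, beside 29.7% and 32.1% of all genes. Atp6v0b, the c-ring subunit also called c″, had 29.8, 50.6 and 55.7 CPM in CPE, 37.4, 37.6 and 35.6 CPM in LPE, and 130.4, 139.6 and 123 CPM in T. It fell in both serum-free media, by 3.55-fold in LPE (log2 -1.83, SE 0.24, edgeR adjusted p = 3.8e-05) and by 2.88-fold in CPE (log2 -1.53, SE 0.23, adjusted p = 0.00014). Atp6v0c, the main subunit of the same ring, had 490.1, 335 and 319.9 CPM in CPE, 331, 297 and 328 CPM in LPE, and 219, 219 and 206 CPM in T. It rose in both, by 1.48-fold in LPE (edgeR adjusted p = 0.0095) and by 1.78-fold in CPE (adjusted p = 0.00059), and neither medium overlapped T. Atp6v0e1, a small membrane subunit, had 132, 173 and 145 CPM in CPE, 117, 124 and 125 CPM in LPE, and 256, 235 and 247 CPM in T, so it fell 2.02-fold in LPE and 1.64-fold in CPE.

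Atp6v0a1, one of the a subunits that form the proton half-channels and steer the pump to its membrane, had 141, 125 and 177 CPM in CPE, against 86.2, 84.0 and 84.2 CPM in T. It rose 1.74-fold in CPE (log2 0.80, SE 0.19, edgeR adjusted p = 0.0046). In LPE it had 140.3, 92.3 and 117 CPM and was not called, but was without LPE replicate 2 (log2 0.62, adjusted p = 0.0199). Atp6v0a2, the isoform known from the Golgi and endosomes, had 26.7 ± 7.93 CPM in CPE, 27.3 ± 2.75 CPM in LPE and 34.2 ± 3.81 CPM in T and was not called. Atp6v0d1, which joins the ring to the stalk and whose promoter stretch is printed above, had 28.4, 39.8 and 70.2 CPM in LPE, against 94.4, 68.9 and 79.5 CPM in T. It was not called (log2 -0.81, edgeR adjusted p = 0.0544). It was called without LPE replicate 3 (log2 -1.25, adjusted p = 0.00503) and with DESeq2 (adjusted p = 0.0497). Atp6v0e2 was not called in any comparison and ranged from 6.44 to 26.2 CPM in CPE, 0 to 6.71 CPM in LPE and 10.7 to 13.6 CPM in T. Between CPE and LPE 0 of the 7 V0 genes were called by edgeR and 0 by DESeq2, and 2 of them, Atp6v0e1 and Atp6v0e2, had an unadjusted p under 0.05 by edgeR. Over all genes edgeR called 17.8% there.

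RefSeq lists pseudogenes named after Atp6v1a, Atp6v1e1, Atp6v1g1, Atp6v0c and Sqstm1, and reads shared with such copies were not counted, so the levels of these 5 genes are uncertain. Copies under other names were not searched for, so other members may be affected too. The part of the different shares of such reads between media (above) was not tested.

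Among the membrane proteins, 3 of 5 fell, 1 rose and 1 missed the threshold in LPE against T. In CPE against T 1 rose and 1 fell, and in CPE against LPE 2 rose and 1 fell. Of the 5, 80% were called in LPE against T, 40% in CPE against T and 60% in CPE against LPE. Over all genes these shares were 29.7%, 32.1% and 17.8%. Scarb2, also called Limp2, carries glucocerebrosidase to the lysosome. It had 163, 148 and 92.1 CPM in CPE, 289.9, 229.7 and 222 CPM in LPE, and 83.5, 66.6 and 98.1 CPM in T. All LPE libraries stood above all others, and the rise over T was 2.98-fold (log2 1.57, SE 0.21, edgeR adjusted p = 5.3e-05). In CPE the libraries overlapped those of T and the rise was 1.62-fold, a call that ended without T replicate 1, T replicate 2, CPE replicate 1 or CPE replicate 2 (edgeR adjusted p = 0.0605, 0.104, 0.0998 and 0.0793). Scarb2 also fell 1.84-fold in CPE against LPE (log2 -0.88, SE 0.20, adjusted p = 0.007), the only member that fell in that comparison.

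Lamp2, which also serves as the receptor of chaperone-mediated autophagy, had 212, 277 and 216 CPM in CPE, 104, 148 and 108 CPM in LPE, and 189.9, 223 and 212 CPM in T. LPE stood below both other media, by 1.74-fold against T (edgeR adjusted p = 0.002), and CPE was 1.96-fold higher than LPE (log2 0.97, SE 0.16, adjusted p = 0.00068). Lamp1, whose promoter stretch holds the 5 cores, had 1850.1, 1632 and 1421 CPM in CPE, 1275, 1221 and 1093 CPM in LPE, and 1475, 1650.4 and 1481 CPM in T. It was 1.37-fold higher in CPE than in LPE (adjusted p = 0.006) and 1.28-fold lower in LPE than in T, the second call being lost without T replicate 2 or LPE replicate 3 (edgeR adjusted p = 0.0681 and 0.0744). Neither Lamp1 nor Lamp2 was called between CPE and T.

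Mcoln1, the calcium and iron channel of the lysosome, had 42.2, 47.9 and 39.0 CPM in CPE, 33.9, 25.8 and 49.0 CPM in LPE, and 62.2, 85.7 and 70.2 CPM in T. Neither serum-free medium overlapped T. The fall in LPE was 2.00-fold (edgeR adjusted p = 0.011) and was not called without T replicate 2 (adjusted p = 0.0732). The fall in CPE (log2 -0.75, adjusted p = 0.0432) was lost when any of the 6 libraries was left out (adjusted p = 0.0635 to 0.196) and after thinning to equal depth (adjusted p = 0.0565). Cd63, a tetraspanin of late endosomes and lysosomes, had 214 ± 52.4 CPM in CPE, 177 ± 46.9 CPM in LPE and 219 ± 19.8 CPM in T (SD, n = 3 each) and was not called in any comparison.

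**Figure D3:**
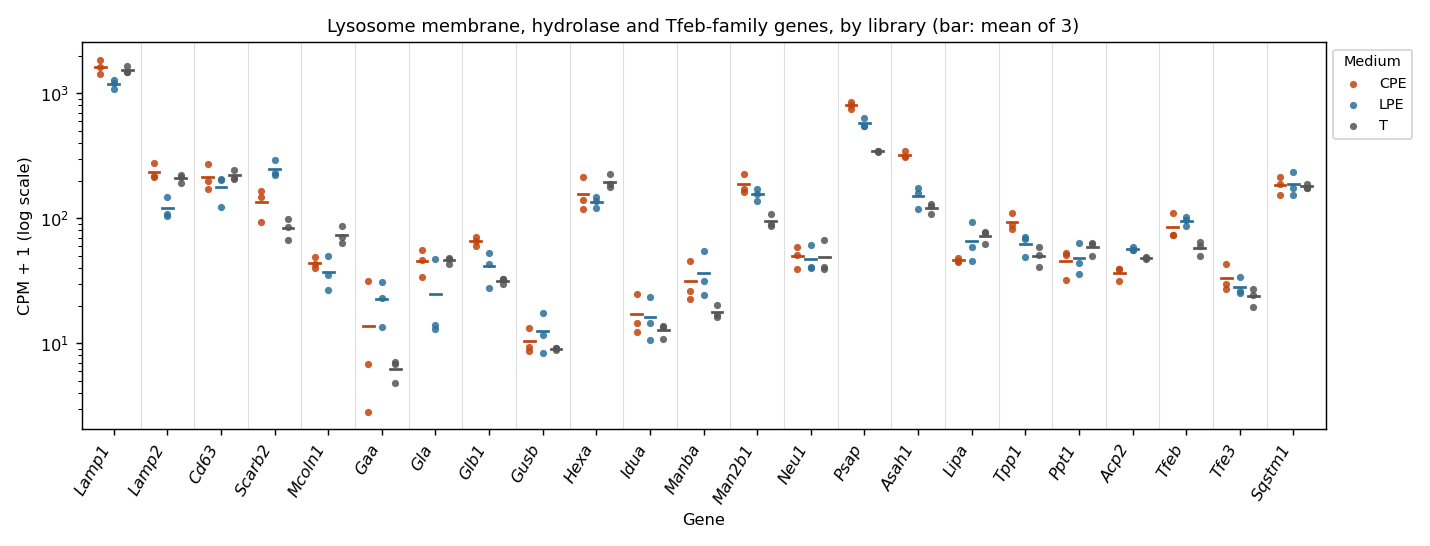
Levels of the 23 membrane, hydrolase and Tfeb-family genes in CPM + 1 on a log axis, with a point for each library, a bar for the mean of 3 and the media CPE, LPE and T from left to right. Psap steps down from CPE (755 to 859 CPM) over LPE (548 to 629 CPM) to T (341 to 347 CPM), whereas the Gaa points of CPE spread from 1.82 to 30.7 CPM.

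Of the 9 glycan hydrolases, 1 rose, 1 fell and 7 missed the threshold in LPE against T, and in CPE against T 2 rose and 7 missed it. The share called was 22.2% in each, below the 29.7% and 32.1% of all genes. In CPE against LPE 0 were called by edgeR and 0 by DESeq2, and 2, Gla and Glb1, had an unadjusted p under 0.05 by edgeR. Over all genes edgeR called 17.8% in that comparison. Man2b1, the lysosomal alpha-mannosidase, had 226, 162 and 171 CPM in CPE, 137, 156 and 171 CPM in LPE, and 88.9, 107 and 86.0 CPM in T. Both serum-free media stood above T, by 1.65-fold in LPE (log2 0.72, SE 0.17, edgeR adjusted p = 0.0049) and by 1.99-fold in CPE (log2 0.99, SE 0.17, adjusted p = 0.00041). Glb1, the beta-galactosidase, had 58.7, 69.3 and 64.7 CPM in CPE, 26.8, 52.2 and 41.7 CPM in LPE, and 31.6, 29.0 and 31.6 CPM in T. It rose 2.09-fold in CPE over T (edgeR adjusted p = 0.0081). Between CPE and LPE it was called only without LPE replicate 2 (log2 0.90, adjusted p = 0.0278). Hexa, the alpha subunit of beta-hexosaminidase, had 147, 136 and 119.6 CPM in LPE, against 176, 224 and 187 CPM in T. Its fall in LPE (log2 -0.54, edgeR adjusted p = 0.0497) was lost when any of the 6 libraries was left out (adjusted p = 0.0656 to 0.201), under RLE scaling (0.0603) and with DESeq2 (0.051). In CPE, Hexa had 213, 139 and 117 CPM, and it was called lower than T without CPE replicate 1 (log2 -0.62, adjusted p = 0.016).

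The other glycan hydrolases were not called, and in several a single library stood apart. Gaa, the enzyme that splits glycogen, had 30.7, 1.82 and 5.80 CPM in CPE, 30.0, 22.1 and 12.5 CPM in LPE, and 3.82, 5.79 and 6.04 CPM in T. CPE replicate 1 stood apart from the other CPE libraries, and without it Gaa was called lower in CPE than in LPE (log2 -2.51, edgeR adjusted p = 0.0348). Every LPE library lay above every T library (log2 2.03, SE 0.82, edgeR adjusted p = 0.0748, not called). DESeq2 called this difference (adjusted p = 0.0401), and so did edgeR with only the pair of media fitted (adjusted p = 0.0128) or after thinning (adjusted p = 0.0348). Gla, the alpha-galactosidase, had 12.1, 13.1 and 45.8 CPM in LPE, against 47.5, 42.3 and 46.5 CPM in T. LPE replicate 3 lay among the T libraries, and without it Gla was called lower in LPE than in T (log2 -1.85, adjusted p = 0.00123) and higher in CPE than in LPE (log2 1.82, adjusted p = 0.00228). Manba, the beta-mannosidase, had 30.4, 53.5 and 23.1 CPM in LPE, against 15.8, 19.1 and 15.3 CPM in T, with no overlap. Its edgeR adjusted p was 0.0524 with all libraries, 0.0272 without LPE replicate 3 and 0.0436 with DESeq2. Gusb, the beta-glucuronidase, averaged 9.41 ± 2.47 CPM in CPE, 11.5 ± 4.63 CPM in LPE and 8.07 ± 0.145 CPM in T (SD, n = 3 each). Idua, the iduronidase, averaged 16.3 ± 6.70 CPM in CPE, 15.2 ± 6.58 CPM in LPE and 11.7 ± 1.67 CPM in T, and Neu1, a sialidase, 48.6 ± 9.63 CPM in CPE, 46.2 ± 11.9 CPM in LPE and 48.3 ± 15.8 CPM in T.

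Psap, Asah1 and Tpp1, which act on lipids and peptides, were higher in CPE than in T. Of the 6 genes in their group, 3 rose and 3 missed the threshold in CPE against T, 1 rose and 5 missed it in LPE against T, and 2 rose in CPE against LPE. These are 50%, 16.7% and 33.3% called, beside 32.1%, 29.7% and 17.8% of all genes. Psap encodes prosaposin, the precursor of the saposins that present sphingolipids to their hydrolases. It had 809, 859 and 755 CPM in CPE, 548, 548 and 629 CPM in LPE, and 341, 347 and 345 CPM in T. The 3 media did not overlap, and each step was called. The log2 fold change was 1.23 in CPE against T (SE 0.10, edgeR adjusted p = 3.2e-07), 0.74 in LPE against T (SE 0.10, adjusted p = 5.2e-05) and 0.49 in CPE against LPE (SE 0.10, adjusted p = 0.0026). Asah1, acid ceramidase, had 343, 310.2 and 314 CPM in CPE, 174, 117 and 157 CPM in LPE, and 125, 108 and 129.7 CPM in T. CPE stood apart from both, 2.66-fold above T (log2 1.41, SE 0.16, edgeR adjusted p = 6.4e-06) and 2.16-fold above LPE (log2 1.11, SE 0.15, adjusted p = 0.00012). Without LPE replicate 2, Asah1 was also called higher in LPE than in T (log2 0.46, adjusted p = 0.0219).

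Tpp1, the tripeptidyl peptidase, had 109, 80.9 and 87.6 CPM in CPE, 47.6, 70.2 and 67.6 CPM in LPE, and 49.7, 40.0 and 58.1 CPM in T. CPE rose 1.87-fold over T (log2 0.91, SE 0.24, edgeR adjusted p = 0.0078), and LPE overlapped T. Lipa, the acid lipase that frees cholesterol from its esters, had 45.2 ± 1.64 CPM in CPE, 65.3 ± 25.1 CPM in LPE and 70.8 ± 8.66 CPM in T (SD, n = 3 each). It was not called with all libraries. In CPE against T it was called lower when only these media entered the fit (log2 -0.63, edgeR adjusted p = 0.0161) and after thinning (adjusted p = 0.0476). Ppt1, a thioesterase that removes palmitate from proteins, was not called, at 44.3 ± 11.5 CPM in CPE, 46.7 ± 13.8 CPM in LPE and 57.8 ± 7.39 CPM in T. Acp2, an acid phosphatase, was not called either, at 35.5 ± 4.61 CPM in CPE, 55.7 ± 1.64 CPM in LPE and 47.1 ± 0.767 CPM in T. The Acp2 libraries of CPE (30.2 to 38.3 CPM) lay below those of LPE (54.4 to 57.5 CPM) without overlap (log2 -0.65, SE 0.23, edgeR adjusted p = 0.0673).

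Tfeb itself was higher in LPE. It had 72.2, 72.7 and 109 CPM in CPE, 85.7, 101 and 95.8 CPM in LPE, and 58.9, 63.7 and 49.3 CPM in T. Neither serum-free medium overlapped T. The rise in LPE was 1.65-fold (log2 0.72, SE 0.22, edgeR adjusted p = 0.0199), and the call was lost without T replicate 1 or 3 (adjusted p = 0.0637 and 0.109). In CPE against T the log2 fold change was 0.56 (SE 0.22) and was not called (edgeR adjusted p = 0.0604), but was without CPE replicate 1 (adjusted p = 0.049) and with only the pair of media fitted (adjusted p = 0.0398). Tfe3, the close relative, had 32.3 ± 8.38 CPM in CPE, 27.3 ± 4.62 CPM in LPE and 22.7 ± 3.79 CPM in T (SD, n = 3 each), and Sqstm1, the autophagy receptor p62, had 185 ± 30.5 CPM in CPE, 186 ± 40.5 CPM in LPE and 179 ± 7.66 CPM in T. Neither was called in any comparison. Of the other relatives, listed with the mTORC1 genes, Mitf was not called, whereas Tfec had 24.8, 18.4 and 24.5 CPM in CPE, 26.2, 19.9 and 48.7 CPM in LPE, and 144, 136 and 146 CPM in T. Tfec fell 6.29-fold in CPE (log2 -2.65, SE 0.30, edgeR adjusted p = 6.8e-06) and 4.48-fold in LPE (log2 -2.16, SE 0.29, adjusted p = 4.7e-05).

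**Figure D4:**
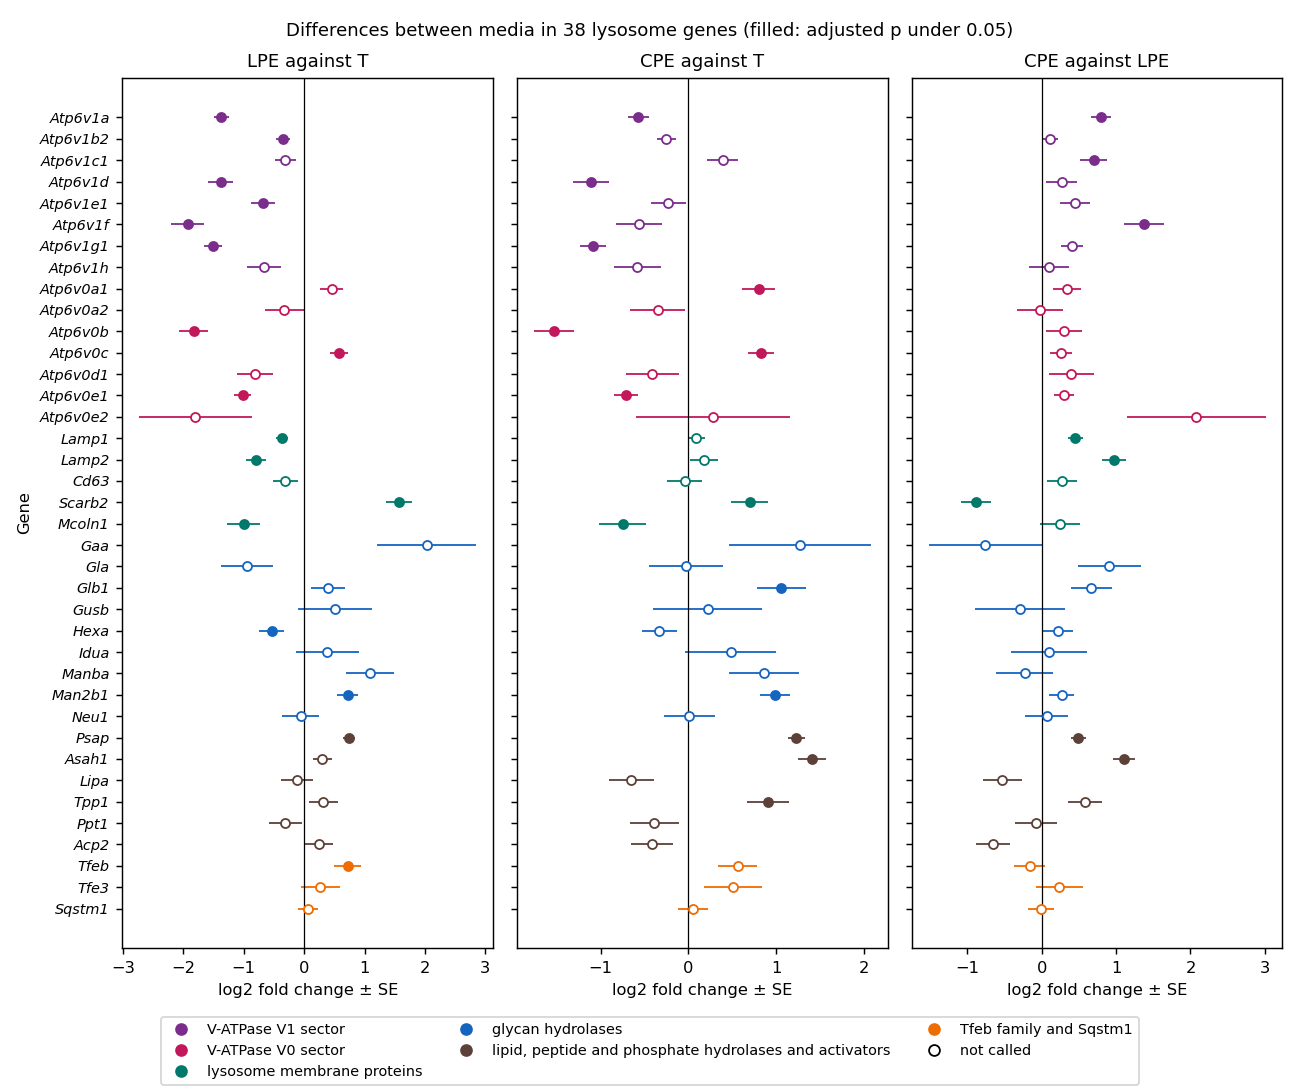
Log2 fold change with its standard error for the 38 members in LPE against T, CPE against T and CPE against LPE, filled where the adjusted p is under 0.05 and coloured by group. In the left panel 13 of the 15 pump genes lie below 0, and in the right panel 14 of them lie above 0.

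Read by group, the pump and the hydrolases differed in their counts. The 15 genes counted as hydrolases here include the activator Psap, which rose in both serum-free media. In LPE against T, 8 of 15 pump genes fell and 1 rose, while 2 of 15 hydrolases rose and 1 fell. In CPE, 5 of 15 pump genes fell and 2 rose, while 5 of 15 hydrolases rose and 0 fell. The pump's share called was 60% in LPE and 46.7% in CPE and that of the hydrolases 20% and 33.3%. Beside the 29.7% and 32.1% of all genes, the hydrolases' share in CPE was near the background in total. Over all genes, 15.0% were higher and 14.7% lower in LPE, and 16.8% higher and 15.3% lower in CPE. The median log2 fold change was -0.81 for the pump and 0.32 for the hydrolases in LPE against T, and -0.41 and 0.48 in CPE against T. The difference between these groups of genes was not tested. In LPE against T, 10 of the 15 pump genes were lower with no overlap between libraries, beside 25.4% of all genes, and in CPE against T 7 were, beside 28.1%. Of the 8 members with CACGTG, Atp6v0e1 and Mcoln1 fell in both serum-free media, Lamp1 fell in LPE and Glb1 rose in CPE, against T. Atp6v0d1, Cd63, Gaa and Idua were not called in any comparison.

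Other lysosomal genes, which are not members, were counted from lists chosen for the pathway. Among 8 tested accessory and assembly genes of the pump, 1 rose and 2 fell in LPE against T, and 1 rose and 1 fell in CPE against T, so that 37.5% and 25% were called. Over all genes these shares were 29.7% in LPE and 32.1% in CPE, which also stand as background for the lists that follow. Atp6ap1, an accessory subunit, fell 1.89-fold in CPE, to 203, 268 and 308 CPM, against 511, 488 and 472 CPM in T (edgeR adjusted p = 0.00036). Among 25 further hydrolases and cofactors, 6 rose and 3 fell in LPE (36% called), and 7 rose and 1 fell in CPE (32% called), near the background. Aga, which removes glycans from asparagine, rose by a log2 of 2.70 in CPE and 2.14 in LPE (edgeR adjusted p = 9.6e-07 and 1.1e-05), to 131 ± 25.8 CPM in CPE and 89.0 ± 18.4 CPM in LPE, against 20.1 ± 2.92 CPM in T. Among 29 further membrane proteins, 4 rose and 2 fell in LPE (20.7% called, below the background). In CPE 7 rose and 2 fell (31% called, near the background in total). Npc1, which exports cholesterol from the lysosome, stood at 256 ± 19.4 CPM in CPE, 299.9 ± 23.7 CPM in LPE and 72.4 ± 15.5 CPM in T, a rise of 3.53-fold in CPE and 4.13-fold in LPE (edgeR adjusted p = 7.1e-07 and 2.9e-07).

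Of 19 tested genes that sort enzymes to the lysosome, 3 rose and 3 fell in LPE against T, and 4 rose and 2 fell in CPE against T. The share called was 31.6% in each, near the 29.7% and 32.1% of all genes. Igf2r encodes the large mannose 6-phosphate receptor, which carries newly made hydrolases to the endosome and also clears Igf2. It had 459, 427 and 684 CPM in CPE, 16.6, 32.6 and 34.0 CPM in LPE, and 18.0, 8.69 and 15.3 CPM in T. CPE stood far above both, 36.9-fold over T (log2 5.21, SE 0.30, edgeR adjusted p = 9.5e-09) and 18.8-fold over LPE (log2 4.23, SE 0.27, adjusted p = 4.2e-08). M6pr, the small receptor for the same signal, was at 0 to 9.99 CPM in CPE, 7.37 to 9.95 CPM in LPE and 3.82 to 6.97 CPM in T and was not called.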

How the data were processed

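Ribosomal RNA was removed from total RNA and cDNA was made with a directional kit and read in pairs of 101 cycles, per the labels' protocols. CASAVA 1.8.2, Trimmomatic 0.33, STAR 2.5.1 and DESeq2 are named, with build rn6, per the submitters' processing notes; no annotation was given in the sources used here. The authors deposited raw read counts per gene and strand; the 4 summary lines stayed out of library sizes. Column 4, the gene strand, was used. Multi-mapped reads are left out of every gene.

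Counts were tested with edgeR 4.0.16 (R 4.3.3), using the quasi-likelihood F test, TMM factors and filterByExpr in 1 fit of the 9 libraries, which kept 9130 genes and all 38 members. SE is the log2 fold change over the root of F. Alternatives included DESeq2 1.42.0. The others were RLE scaling, library totals, no filter, either strand, thinning, only the pair of media, a replicate block and leaving out each library. The method was tested on simulated data. The members and lists were chosen with earlier results of these data known. Values per library are given for members called in at least 1 comparison at 1.5-fold or more and 10 CPM, and also for Lamp1, Hexa, Atp6v1h, Atp6v0d1, Gaa, Gla and Manba, chosen after their values were seen. Other lists name up to 2 genes per direction, Mitf, M6pr and markers apart. Precision is limited by 3 libraries per medium. Gene lengths were not used, so levels are not compared between genes.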

Additional observations from a re-analysis of the deposited data

How the results depend on the processing

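Each comparison was recomputed under 8 other settings (RLE scaling, library totals, DESeq2, no low-count filter, counts on either strand, thinning to equal depth, only the pair of media compared, and the replicate block) and with each of its 6 libraries left out. Of 39 called member results, 30 stayed called in the same direction under all of these and 37 under those that keep every library, and 0 of 546 values changed sign. The members called numbered 17 to 20 in LPE against T, 13 to 18 in CPE against T and 8 to 9 in CPE against LPE with all libraries in, and 13 to 18, 12 to 15 and 7 to 10 with 1 library left out. The replicate numbers are shared between media, but same-numbered libraries did not deviate together (correlations of -0.0266 to 0.0118). These values cannot show whether such libraries share a culture day or a batch, which is not stated. With the replicate block 18, 13 and 8 members were called. Under it Mcoln1 in CPE against T was not called (edgeR adjusted p = 0.0628) and Atp6v0d1 in LPE against T was (adjusted p = 0.0484). Fitting only the pair of media moved CPE against T to 18 members, with Atp6v1c1 higher (edgeR adjusted p = 0.00966) and Atp6v1h lower (adjusted p = 0.0144). It also called Lipa and Tfeb, as given above. Over all genes that setting called 3664 of 8681, beside 2928 of 9130 in the fit of all 9 libraries, so calls rose generally. Leaving out a T library lowered the calls over all genes in LPE against T from 2716 to between 1896 and 1946. T libraries were shallower and varied less than the others, and 3 libraries per medium limit what small differences can show. Lower-level members such as Atp6v0e2, Gaa, Gusb and Idua are the least precise.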

Other observations

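Most subunits of Ragulator and of the Rag GTPases, which tether mTORC1 to the lysosome surface, where it holds Tfeb back, were lower in LPE than in T. Of 8 such genes tested, a subset chosen after their values were seen, 5 fell (Lamtor1, Lamtor3, Lamtor5, Rraga and Rragc) and 3 missed the threshold (Lamtor2, Lamtor4 and Rragd), and Rragd had a positive log2 fold change of 0.51. In CPE against T 2 fell, Lamtor1 and Lamtor3, and 6 missed the threshold. Of the 23 tested genes of the whole Ragulator, Rag GTPase and mTORC1 list, 5 rose, 8 fell and 10 missed the threshold in LPE against T (56.5% called, against 29.7% of all genes). In CPE 3 rose and 6 fell (39.1% called, against 32.1%). Lamtor1, the membrane anchor of Ragulator, had 36.9, 57.7 and 65.1 CPM in CPE, 39.0, 30.8 and 55.8 CPM in LPE, and 122, 129 and 97.2 CPM in T. Against T it fell 2.18-fold in CPE and 2.77-fold in LPE (edgeR adjusted p = 0.0041 and 0.00069). Rheb, the small GTPase that switches mTORC1 on, went the other way, with 139 ± 10.7 CPM in CPE, 112 ± 24.5 CPM in LPE and 46.2 ± 3.12 CPM in T (SD, n = 3 each), a log2 rise of 1.59 in CPE and 1.28 in LPE against T (edgeR adjusted p = 1.9e-05 and 0.00017).

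Autophagy genes, which feed cargo to the lysosome, were called about as often as all genes. Of 33 tested, 5 rose and 4 fell in LPE against T (27.3% called, beside 29.7% of all genes), and 5 rose and 5 fell in CPE against T (30.3%, beside 32.1%). Becn1 is part of the lipid kinase complex that starts the autophagosome. It had 188, 185 and 179 CPM in CPE, 207, 179 and 261 CPM in LPE, and 82.9, 97.9 and 92.1 CPM in T. The rise in LPE against T was 2.37-fold (edgeR adjusted p = 3.4e-05), and the CPE libraries also lay above those of T. Pik3c3, the kinase of the same complex, rose 2.35-fold in LPE and 2.48-fold in CPE. Gabarapl1, an Atg8-type protein, had 16.4 ± 1.52 CPM in CPE, 11.7 ± 3.81 CPM in LPE and 43.2 ± 5.22 CPM in T and fell 2.62-fold in CPE and 3.70-fold in LPE. The call of Gabarapl1 in CPE was lost without T replicate 1 (edgeR adjusted p = 0.0536).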
